A study of Mus musculus with 8 samples.

Results

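Autophagy is the process by which a cell encloses proteins and organelles in a membrane, the autophagosome, and breaks them down after fusion with lysosomes. A kinase complex around ULK1 starts it, a lipid kinase complex with BECN1 marks the site where the membrane grows, and proteins of the ATG8 family are attached to that membrane by a conjugation machinery that includes ATG5. In skeletal muscle, autophagy is known for clearing damaged mitochondria and aggregated proteins and for its part in muscle loss during fasting and disuse. The 10 genes described here stand for these steps and were chosen by their names, with earlier results of these data known. Ulk1 and Becn1 stand for the start, Atg5 for conjugation, and Map1lc3a, Map1lc3b, Gabarapl1 and Gabarapl2 for the ATG8 family. Sqstm1 stands for cargo, Tfeb for transcription and Ctsl for lysosomal breakdown. All 10 have a row among the 24054 genes of the table, and all 10 passed the filter on low values that left 11865 genes to test.

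RNA was sequenced from SOL (soleus, a hindlimb muscle with both slow and fast fibers) of 8 male C57BL/6 mice. The labels place these mice on a high-fat diet, and the sources used here give no age for them. The 4 MI4KO mice carried floxed alleles of Irf4, an interferon regulatory factor, together with Myl1-Cre, and the 4 flox mice carried the floxed alleles without Cre. Cre is made from the locus of Myl1, a myosin light chain gene of skeletal muscle fibers, mainly of the fast type, so cells of the sample other than muscle fibers keep Irf4. Each mouse gave 1 library, and mice are numbered 1 to 4 within their group, without any pairing between the groups.

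The deposited values are CPM, read counts relative to the size of the library, after TMM normalization, which puts the libraries on a scale where most genes keep their level. Each flox mouse had 13916450 to 16137925 reads on genes and each MI4KO mouse 13417512 to 16384565, and 3 reads correspond to values between 0.181 and 0.225. Irf4 itself lay at 0.686, 1.46, 1.58 and 1.68 in the flox mice and at 0.725, 0.840, 0.266 and 1.03 in the MI4KO mice, with 4 to 23 reads per mouse, so the groups overlapped. Its log2 fold change was -0.45 (SE 0.20), with p = 0.0402 before adjustment and a Benjamini-Hochberg adjusted p of 1.0 in limma, while exact permutation (two-sided) gave p = 0.114. This change was fitted on log2(value + 1), which shrinks changes of genes this low. The fitted ratio of MI4KO to flox was 0.731, while the ratio of the group means was 0.530. Markers of slow fibers summed to between 20584 and 27969 and those of fast fibers to between 29275 and 37771 in each mouse, with none of the 10 markers at 0. In flox mouse 1, 7 of 7 liver markers were at their highest, with a sum of 117 against 0.133 to 0.763 in the other mice, and in MI4KO mouse 3, 5 of 6 neutrophil markers were, with a sum of 12.8 against 1.58 to 4.36.

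None of the 10 autophagy genes passed a test of the difference between MI4KO and flox SOL. The limits of the study were a change of 1.5-fold or more with p under 0.05 before adjustment. In limma they were passed by 0 of the 10 genes and by 26 of all 11865 genes tested (0.219%). Those higher in MI4KO mice made up 0.059% of all genes tested and those lower 0.16%. The study applied these limits with edgeR, so 26 is not the study's own count, and edgeR's exact test gave 94 here. At an unadjusted p under 0.05 alone the count was also 0 of 10, against 3.36% of all genes (399, which became 258 without flox mouse 3 and 618 without MI4KO mouse 4), and at an adjusted p under 0.05 it was 0 of 10 against 0% of all genes. edgeR's quasi-likelihood test, its exact test and DESeq2 on the recovered reads likewise gave 0 of 10 at an unadjusted p under 0.05, where they gave 371, 281 and 248 of all genes. Values of the 2 groups overlapped for every one of the 10 genes, while 2.07% of all genes had groups that did not overlap, 0.371% being higher and 1.7% lower in MI4KO mice. With either MI4KO mouse 3 or flox mouse 1 left out, or both, 0 of the 10 were called as well. In whole muscle, fewer cells of a type and less RNA per cell cannot be told apart. The fitted log2 fold changes (MI4KO minus flox, on log2(value + 1)) ran from -0.11 for Gabarapl1 to 0.06 for Becn1, with 7 above 0 and 3 below, a median of 0.04 and an adjusted p of 1.0 for each gene in limma. This tally turned to 3 above and 7 below without MI4KO mouse 3, to 5 and 5 without flox mouse 2, and to 9 above and 1 below without MI4KO mouse 2 or on plain CPM. Over all genes tested the median was -0.01, and 43.8% of genes lay above 0.

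A p that misses the threshold does not show that 2 levels are equal, so the intervals are given too. The 95% interval of the ratio of MI4KO to flox stayed inside 1.5-fold in both directions for 10 of 10 autophagy genes, as it did for 90.7% of all genes tested. The lowest bound was 0.811 for Gabarapl1 and the highest was 1.23 for Ulk1. Each interval also included equal levels, and with 4 mice a group a difference inside a gene's own interval is not excluded. In simulated counts of the same depth, 86 of 96 genes with a 2-fold change passed an adjusted p under 0.05, as did 59 of 99 with a 1.5-fold change. The study's limits were passed by 93 of 96 and 36 of 99. The simulation drew each gene on its own, without shifts shared by many genes of a mouse, so it does not give the power of these data.

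**Figure D1:**
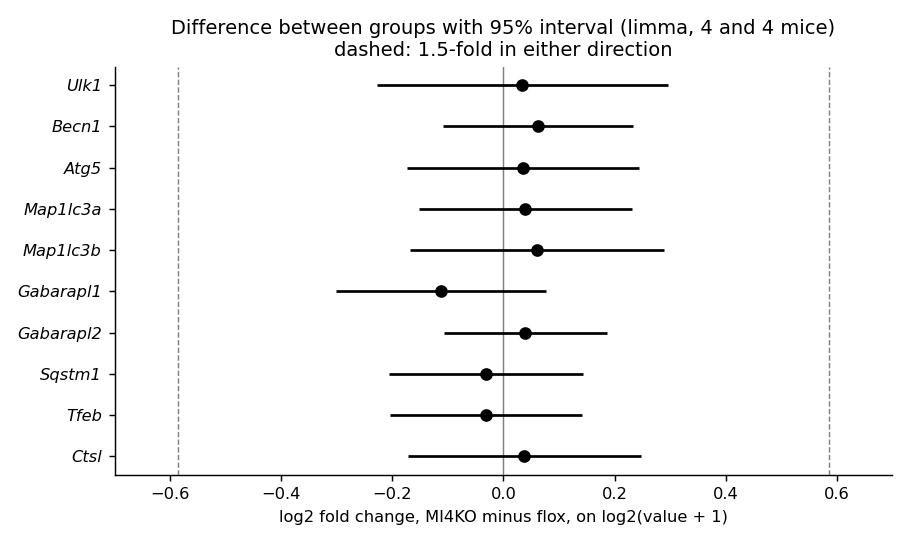
Log2 fold change of each of the 10 autophagy genes, MI4KO minus flox, on log2(value + 1) (horizontal axis), fitted by limma over 4 and 4 mice. Points are the fitted values and bars their 95% intervals, the dashed lines mark 1.5-fold in either direction, and every bar crosses 0 and ends inside the dashed lines.

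The genes that start autophagy were at similar mean levels in the 2 groups, but Ulk1 varied most between mice. Ulk1 encodes the kinase whose activity is set by the nutrient sensors AMPK and mTORC1, and its position in GRCm38 is chromosome 5, 110784488 to 110810097, minus strand. Its values were 96.9, 78.1, 88.2 and 88.0 in the flox mice and 75.0, 77.3, 109.8 and 101.6 in the MI4KO mice. The MI4KO mice thus fell on both sides of the flox mice, with mice 1 and 2 below all of them and mice 3 and 4 above all of them. Flox mice had a mean of 87.8 ± 7.70 (SD, n = 4), and MI4KO mice one of 90.9 ± 17.4 (SD, n = 4). The fitted log2 fold change of Ulk1 was 0.03 (SE 0.12, 95% interval of the ratio 0.854 to 1.23, p = 0.783 in limma, two-sided exact permutation p = 0.886).

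The animal numbers in the labels fall into 2 ranges, a lower one with 3 mice and a higher one with 5, and no source used here says whether they mark a batch. Within the lower range, with flox mouse 1 and MI4KO mice 1 and 2, the difference in log2(value + 1) of Ulk1 was -0.35. Within the higher range, with flox mice 2, 3 and 4 and MI4KO mice 3 and 4, it was 0.32. The lower range thus rests on the flox mouse with high liver markers, and the higher range holds the MI4KO mouse with high neutrophil markers. Map1lc3b differed in the same manner, at -0.13 in the lower range and 0.21 in the higher range. For Gabarapl1 both ranges gave values below 0, at -0.24 and -0.08. Over the 10 genes, differences ran from -0.35 to 0.17 in the lower range and from -0.08 to 0.32 in the higher range, and with 1 flox mouse in the lower range they were not tested.

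Over the 8 mice, the genes whose log2 values followed those of Ulk1 most closely, by the root mean square difference of centred values among all genes tested, were Wnk2 (0.03), Ptpn3 (0.04), Vps13d (0.05), Iqsec1 (0.05) and Josd1 (0.05). Wnk2, a kinase gene, lay at 119, 91.8, 104 and 106 in the flox mice and at 94.2, 91.3, 133 and 122 in the MI4KO mice. As for Ulk1, flox mouse 1 was the highest flox mouse, and MI4KO mice 3 and 4 were above every flox mouse. These 5 genes were picked for their likeness out of 11865, and their own log2 fold changes lay between -0.01 and 0.07 with an adjusted p of 1.0 in limma.

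Becn1, whose product is part of the class III phosphatidylinositol 3-kinase complex, lies on chromosome 11 from 101285952 to 101302286 on the minus strand. It was at 62.8, 66.5, 69.8 and 63.5 in the flox mice and at 75.9, 66.1, 71.1 and 61.8 in the MI4KO mice. The lowest and the highest mouse were both MI4KO mice. The flox mean was 65.7 ± 3.16 (SD, n = 4) and the MI4KO mean 68.7 ± 6.15 (SD, n = 4), with a log2 fold change of 0.06 (SE 0.08, interval of the ratio 0.927 to 1.17, p = 0.446 in limma, exact permutation p = 0.457). Exons of Cntd1 on the opposite strand cover 43.9% of the exonic bases of Becn1, but Cntd1 had values of only 0.0729 to 0.435.

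Atg5, whose product joins ATG12 in the complex that attaches ATG8 proteins to lipid, lies on chromosome 10 from 44268358 to 44364291 on the plus strand. It was the lowest of the 10 genes and was counted with 189 to 238 reads per mouse. The flox mice had 13.97, 13.2, 17.1 and 13.8 and the MI4KO mice 14.5, 14.8, 15.7 and 14.4. All MI4KO mice lay inside the range of the flox mice, which flox mouse 3 widened. With means of 14.5 ± 1.75 (SD, n = 4) and 14.8 ± 0.589 (SD, n = 4), the log2 fold change was 0.04 (SE 0.10, interval of the ratio 0.887 to 1.18, p = 0.718 in limma, exact permutation p = 0.714). At this depth counting error alone gives a coefficient of variation of 6.79%, and the observed values were 12.04% over flox mice and 3.97% over MI4KO mice.

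**Figure D2:**
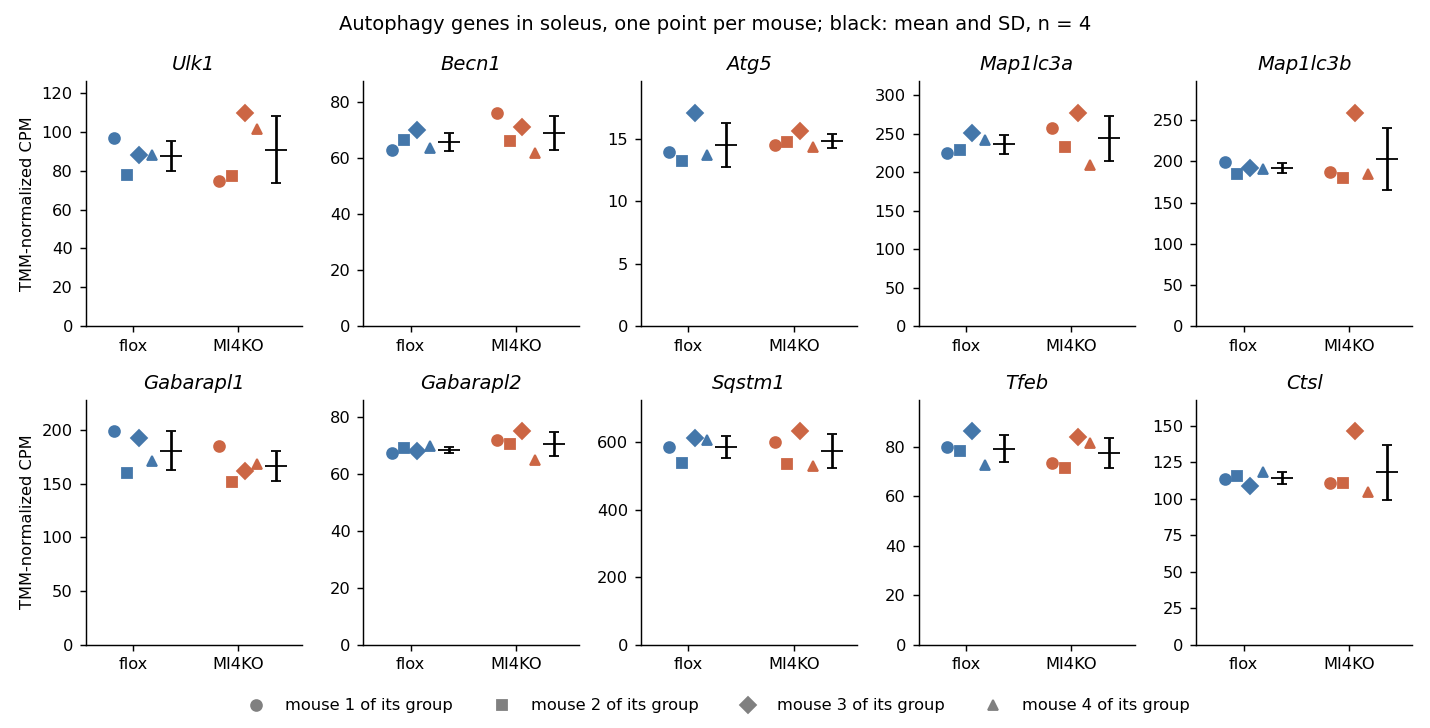
TMM-normalized CPM (vertical axes, from 0) of the 10 autophagy genes in SOL, 1 panel per gene and 1 point per mouse, with flox mice in blue and MI4KO mice in orange and symbols for the number of a mouse within its group, which pairs no mice. Black marks are the mean and SD of 4 mice. The groups overlap in each panel, and MI4KO mouse 3 (diamonds) stands above the other mice for Map1lc3b at 259 and Ctsl at 146.

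The ATG8 family holds the LC3 proteins, which bind cargo receptors on the growing membrane, and the GABARAP proteins, known for roles in autophagosome closure and fusion. Map1lc3a, on chromosome 2 from 155276297 to 155278073 on the plus strand, was at 224, 228, 251 and 242 in the flox mice. In the MI4KO mice it was at 257, 233, 277 and 209, with both the highest and the lowest mouse of the series. The means of Map1lc3a were 236 ± 12.1 (SD, n = 4) and 244 ± 29.4 (SD, n = 4), with a log2 fold change of 0.04 (SE 0.09, interval of the ratio 0.9004 to 1.17, p = 0.661 in limma, exact permutation p = 0.714).

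Map1lc3b, which encodes LC3B, the form most often used as a marker of autophagosomes, lies on chromosome 8 from 121590361 to 121598760 on the plus strand. It was at 199.7, 185, 192 and 190.2 in the flox mice and at 187, 179, 259 and 184 in the MI4KO mice. MI4KO mice 2 and 4 were below every flox mouse, mouse 1 lay within the flox range, and mouse 3 was above every flox mouse. The means were 192 ± 6.02 (SD, n = 4) and 202 ± 37.7 (SD, n = 4), and the log2 fold change was 0.06 (SE 0.10, interval of the ratio 0.890 to 1.22, p = 0.576 in limma, exact permutation p = 0.971). Without MI4KO mouse 3 it turned to -0.06 (adjusted p = 0.978 in limma).

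Gabarapl1, on chromosome 6 from 129533160 to 129542346 on the plus strand, was the gene furthest from 0 among the 10. Its values were 198.5, 160.0, 192 and 171 in the flox mice and 185, 152, 162 and 168 in the MI4KO mice. All 4 MI4KO mice were below flox mice 1 and 3, while flox mouse 2 was below 3 of the MI4KO mice. The means were 181 ± 18.0 (SD, n = 4) and 167 ± 13.9 (SD, n = 4), so the difference was smaller than the spread within the flox group, and the log2 fold change was -0.11 (SE 0.09, interval of the ratio 0.811 to 1.05, p = 0.219 in limma, exact permutation p = 0.257).

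Gabarapl2, on chromosome 8 from 111940703 to 111953612 on the plus strand, varied least between mice. It stayed between 67.4 and 69.7 in the flox mice and was at 71.7, 70.5, 74.9 and 64.8 in the MI4KO mice. MI4KO mice 1, 2 and 3 were above every flox mouse and mouse 4 was below every flox mouse. The means were 68.5 ± 1.04 (SD, n = 4) and 70.5 ± 4.18 (SD, n = 4), with a log2 fold change of 0.04 (SE 0.07, interval of the ratio 0.928 to 1.14, p = 0.571 in limma, exact permutation p = 0.400).

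The proportions within the ATG8 family were compared as ratios of the values of 2 genes in the same mouse, which do not depend on how a library was scaled. Exact permutation p of the 6 ratios ran from 0.200 to 0.971, with a lowest Benjamini-Hochberg adjusted p of 0.571. With 4 mice a group a single ratio could not go below 0.171 after adjustment, so this test could not have called 1 ratio alone. The ratio of Map1lc3b to Gabarapl1 reached 1.596 in MI4KO mouse 3, with the other 7 mice between 0.999 and 1.18. In that mouse Map1lc3b was thus high and Gabarapl1 was not, at 0.947 times the median of the other mice.

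Reads of 50 bases can fall on more than 1 gene where copies exist. In the GENCODE annotation, 17.0% of the 50-base stretches of Gabarapl2 transcripts also occur in other genes, namely 4 predicted genes without a row in the table. The share was 6.39% for Map1lc3b and 6.90% for Ctsl, 0.168% for Becn1 and 0 for each of the other 6 genes. Values of Gabarapl2, Map1lc3b and Ctsl may therefore be affected by how reads were divided. Genes on the opposite strand also share exonic bases with Gabarapl1 (28.3%, 1700101I11Rik, at 0.465 to 1.52), Sqstm1 (17.3%, Mrnip) and Ctsl (26.9%, Gm47123), and whether strand was used in counting is not given in the sources used here.

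Sqstm1 encodes p62, the receptor that binds ubiquitinated cargo and LC3 and is itself broken down by autophagy. It lies on chromosome 11 from 50199366 to 50210827 on the minus strand. Its values were 586, 539.5, 614 and 606 in the flox mice and 601, 535, 632 and 529.8 in the MI4KO mice. MI4KO mice 2 and 4 lay just below the lowest flox mouse and mouse 3 just above the highest. The means were 586 ± 33.3 (SD, n = 4) and 574 ± 50.3 (SD, n = 4), with a log2 fold change of -0.03 (SE 0.08, interval of the ratio 0.867 to 1.10, p = 0.697 in limma, exact permutation p = 0.771). Counted with 7778 to 9507 reads per mouse, Sqstm1 was the most precisely counted of the 10 genes, with 1.08% expected from counting against 5.67% observed over flox mice.

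Tfeb encodes a transcription factor that drives lysosomal and autophagy genes when it enters the nucleus, a step that mRNA levels do not show. It lies on chromosome 17 from 47737030 to 47792419 on the plus strand. The flox mice had 80.1, 78.5, 86.3 and 72.6 and the MI4KO mice 73.6, 71.6, 84.0 and 81.8. The highest value was in a flox mouse and the lowest in an MI4KO mouse, with the rest interleaved. The means were 79.4 ± 5.61 (SD, n = 4) in flox and 77.7 ± 6.09 (SD, n = 4) in MI4KO mice, and the log2 fold change of Tfeb was -0.03 (SE 0.08, interval of the ratio 0.869 to 1.10, p = 0.706 in limma, exact permutation p = 0.714).

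TFEB is known to bind E-boxes with the letters CACGTG. The stretches around them are shown for the 2 genes that have this motif among those with a promoter here. RefSeq promoters, the 250 bases before a transcript start on GRCm38.p6, were found for 8 of the 10 genes, not for Map1lc3a and Becn1. Capitals mark the E-box, which reads the same on both strands, and 6.02% of all 32851 promoters of this length hold it.
Atg5, chr10:44268239-44268338, plus strand: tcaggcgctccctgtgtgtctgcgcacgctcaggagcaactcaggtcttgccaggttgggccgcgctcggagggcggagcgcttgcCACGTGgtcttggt
Ctsl, chr13:64370741-64370768, minus strand: ggcgttagaagcCACGTGctgatctaaa

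In Atg5 the motif lies 14 to 9 bases before the start and outside annotated exons. In Ctsl it lies 236 to 231 bases before the start used here, inside an exon of another Ctsl transcript. This Ctsl window, 64370521 to 64370770 on the minus strand, lies inside the annotated gene, which begins at 64370890. Bases before that outer start were not searched. The longer form TCACGTGA, which contains the E-box and occurs in 0.785% of promoters, was in none of the windows searched for the 8 genes. The FoxO motif GTAAACA (3.17% of promoters) and the interferon response motif, a pair of GAAA blocks with any 2 bases between (2.98%), both searched on both strands, were in none of them either. The letters AGAACA, part of the glucocorticoid receptor's site and present in 16.1% of promoters, were in that of Atg5 only, 191 to 186 bases before the start on the opposite strand. These are matches of letters, and binding was not measured.

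Ctsl encodes cathepsin L, a lysosomal protease known to be raised in wasting muscle. It lies on chromosome 13 from 64359337 to 64370890 on the minus strand. It was at 113, 116, 109 and 118 in the flox mice and at 111, 111, 146 and 104 in the MI4KO mice. MI4KO mouse 3 lay above all other mice, and MI4KO mice 1, 2 and 4 were all below flox mice 1, 2 and 4. The means were 114 ± 4.15 (SD, n = 4) and 118 ± 19.0 (SD, n = 4), with a log2 fold change of 0.04 (SE 0.10, interval of the ratio 0.887 to 1.19, p = 0.704 in limma, exact permutation p = 0.943). Without MI4KO mouse 3 it turned to -0.07 (adjusted p = 0.978 in limma).

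In the deposited values MI4KO mouse 3 was often the highest mouse, among these genes and among all genes tested. It had the highest value of the 8 mice for 6 of the 10, namely Map1lc3a, Map1lc3b, Gabarapl2, Sqstm1, Ulk1 and Ctsl. It was also highest for 30.9% of all genes tested, and its column of values had the highest sum, 1089208. With each library divided by its own total instead (plain CPM), it was highest for 2 of the 10 genes, Map1lc3b and Ctsl, and for 13.2% of all genes. In the deposited values Map1lc3b was 1.38 times and Ctsl 1.32 times the median of the other mice, and both were at least 1.2 times every other mouse, as were 5.66% of all genes. On plain CPM, Map1lc3b was at 238 against 179 to 198 in the other mice and Ctsl at 134 against 101 to 121. Neither was at least 1.2 times every other mouse, as 2.92% of all genes were. Gabarapl1 was lowest in this mouse on that scale, at 149 against 165 to 197 in the others.

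Beside these, the same mouse had Foxo1, a transcription factor gene known to drive autophagy genes in muscle, at 124 against 29.1 to 41.8 in the other mice. Fkbp5 and Mt1, both known to be induced by glucocorticoids, were at 159 and 191 in it, against ranges of 19.4 to 31.2 and 17.8 to 26.3. Arntl and Dbp, genes of the circadian clock and its output, were at 13.9 and 53.7 in it, against 3.43 to 9.76 and 109 to 170. Its summed macrophage markers were 55.9 against 39.8 to 53.3, with 3 of 8 at their highest, its neutrophil markers were high as given above, and its Irf4 was the lowest of all. The part of these in the values of Map1lc3b and Ctsl was not tested. Fkbp5, Mt1, Arntl and Dbp were chosen after their values in this mouse were known.

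**Figure D3:**
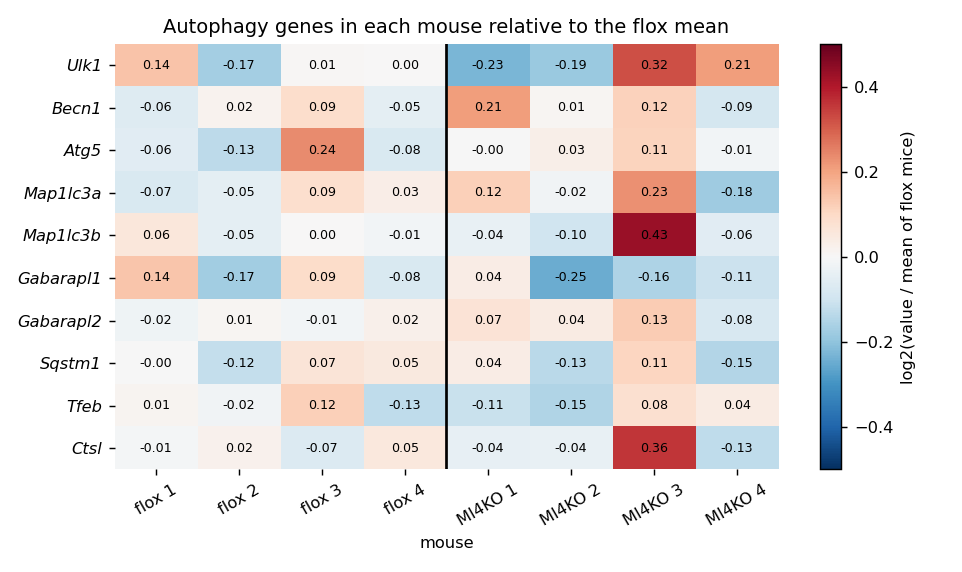
Value of each autophagy gene (rows) in each mouse (columns) as log2 of its ratio to the mean of the 4 flox mice, with blue for lower and red for higher, limited to 0.5 in either direction. MI4KO mouse 3 reaches 0.43 for Map1lc3b and 0.36 for Ctsl, while the MI4KO mice lie on both sides of 0 for Ulk1.

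Per kilobase of the longest coding transcript in GENCODE, the 10 genes spanned a wide range of levels, averaged over the 8 mice. Sqstm1 (217, range over mice 198 to 236) and Map1lc3a (216, range 188 to 249.1) came first and overlapped. Gabarapl1 (95.4, range 83.4 to 109) and Map1lc3b (74.9, range 68.1 to 98.3) came next and overlapped as well. Gabarapl2 (41.4, range 38.7 to 44.6) and Tfeb (33.5, range 30.6 to 36.8) did not overlap with their neighbours. Ctsl (18.8), Ulk1 (17.1) and Becn1 (15.4) overlapped in their ranges, from 14.1 for the lowest mouse of Becn1 to 23.7 for the highest of Ctsl. Atg5 was lowest at 6.24, with no overlap. Part of this order depends on which transcript is used. With the median transcript length in place of the longest, Becn1 moved from rank 9 to rank 5 with 45.0, Gabarapl1 rose to 192 and Map1lc3b to 119. Sqstm1 (260.1 to 310.3) then lay above Map1lc3a (188 to 249.1) without overlap, and Gabarapl1 (168 to 220.1) overlapped with Map1lc3a but not with Map1lc3b (108 to 156).

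A wider list of 85 autophagy and lysosome genes, all of them in the table and all tested, was read in the same fit. None passed the study's limits or an adjusted p under 0.05 in limma, against 0.219% and 0% of all genes. Of all genes, edgeR's quasi-likelihood test called 66 and DESeq2 51, none of them among the 85. edgeR's exact test called 94, among them Foxo1 (log2 fold change 0.67, p = 0.0373 before and 1.0 after adjustment). At an unadjusted p under 0.05 alone, 1 of the 85 was lower and 0 were higher, against 2.95% and 0.413% of all genes. This direction turned with the setting, since 0 were lower and 3 higher on plain CPM (Rab7, Hexa and Atp6v1h), 1 higher with median-of-ratios scaling, with the animal number range as a covariate and by edgeR's quasi-likelihood test (Rab7 each time), and 2 higher by DESeq2 (Rab7 and Atp6v1h). With mice left out, the count was 1 lower without MI4KO mouse 1 or flox mouse 2 and 2 lower without MI4KO mouse 4. It was 3 lower without MI4KO mouse 3 and flox mouse 1 together, but 2 higher without MI4KO mouse 2. Rab7 passed this limit in 6 of 20 alternatives and Atg7 in 7. The log2 fold changes of the list had a median of 0.01, with 46 above 0 and 39 below, and for 97.6% of the list the 95% interval stayed inside 1.5-fold, with Foxo1 and Npc1 as the exceptions.

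The gene under that limit was Atg7, which encodes the enzyme that activates ATG8 proteins and ATG12 for conjugation. Atg7 was at 15.5, 14.6, 16.3 and 15.7 in the flox mice and at 13.5, 12.7, 12.5 and 14.7 in the MI4KO mice. The groups overlapped through MI4KO mouse 4 and flox mouse 2. Its log2 fold change was -0.20 (SE 0.09, interval of the ratio 0.762 to 0.992), with an unadjusted p of 0.0391 and a Benjamini-Hochberg adjusted p of 1.0 in limma, and it was not under 0.05 on plain CPM, with median-of-ratios scaling, with the animal number range as a covariate or by edgeR and DESeq2, nor with flox mouse 1, 3 or 4 or MI4KO mouse 1, 2 or 3 left out. The other end of this conjugation group of 10 genes was Atg3, at 0.08.

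Npc2, which encodes a cholesterol carrier of the lysosome, was the gene of the 85 whose groups did not overlap. It was at 31.7, 30.9, 31.3 and 30.8 in the flox mice and at 26.0, 29.4, 30.7 and 28.2 in the MI4KO mice. The highest MI4KO mouse and the lowest flox mouse were thus nearly level. Its log2 fold change was -0.12 (SE 0.08, adjusted p of 1.0 in limma). Genes not overlapping and lower in MI4KO mice made up 1.7% of all genes, and 1 of 85 is close to that share.

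By role, the log2 fold changes of the wider list lay between -0.20 and 0.40, and limma called no gene in any role, while edgeR's exact test called Foxo1 among the transcription factors as given above. The 7 further genes of the class III lipid kinase complex all lay below 0, from -0.15 for Rubcn, an inhibitor in this complex, to -0.03 for Uvrag, with a median of -0.09. In the 6 transcription factor genes all values were above 0, from 0.02 for Zkscan3, a repressor of autophagy genes, to 0.40 for Foxo1, with a median of 0.08. Without MI4KO mouse 3, the MI4KO mean fell below the flox mean for Tfe3 (ratio 0.984), Foxo1 (0.949), Foxo4 (0.982) and Zkscan3 (0.951). For Mitf (1.11) and Foxo3 (1.03) it stayed above. Foxo1 (SE 0.34, exact permutation p = 0.714) rested on MI4KO mouse 3, since the other MI4KO mice, at 29.1, 32.5 and 37.1, lay close to the flox range of 29.3 to 41.8. Foxo3 spanned 6.38 to 12.3 over flox mice and 7.18 to 12.5 over MI4KO mice, with a log2 fold change of 0.11 (SE 0.19).

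The 4 further genes of the ULK complex ran from -0.12 for Atg101 to 0.03 for Ulk2, and the 9 genes of membrane supply ran from -0.07 for Atg9a, the scramblase of the seed vesicles, to 0.13 for Vmp1. Of the 14 cargo receptor genes, 11 lay above 0, and they ran from -0.06 for Bnip3l to 0.12 for Fundc1, both of them receptors for mitochondria. The 12 genes of fusion with lysosomes ran from -0.12 for Vps33a to 0.19 for Rab7, the small GTPase of late endosomes, with 9 below 0. The 23 lysosome genes ran from -0.18 for Ctsz, a protease, to 0.22 for Atp6v1h, a subunit of the proton pump, with 15 above 0. Over all genes tested, 43.8% lay above 0, and no role was tested as a set. Without MI4KO mouse 3, the MI4KO mean fell below the flox mean for the cargo receptor genes Tax1bp1 (ratio 0.979) and Tex264 (0.955). It also did so for the fusion gene Snap29 (0.981). Of the lysosome genes, Ctsb (0.975), Ctsd (0.977), Npc1 (0.944) and Atp6v1b2 (0.970) did the same, while Atp6v1a (1.01) rose above. Signs of the fitted changes were not recounted without this mouse, a setting in which the median over all genes was -0.04. Rab7 spanned 60.4 to 74.9 over flox mice and 68.9 to 94.997 over MI4KO mice, and Atp6v1h at 24.1 to 31.5 and 28.1 to 44.9, with MI4KO mouse 3 highest for both.

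**Figure D4:**
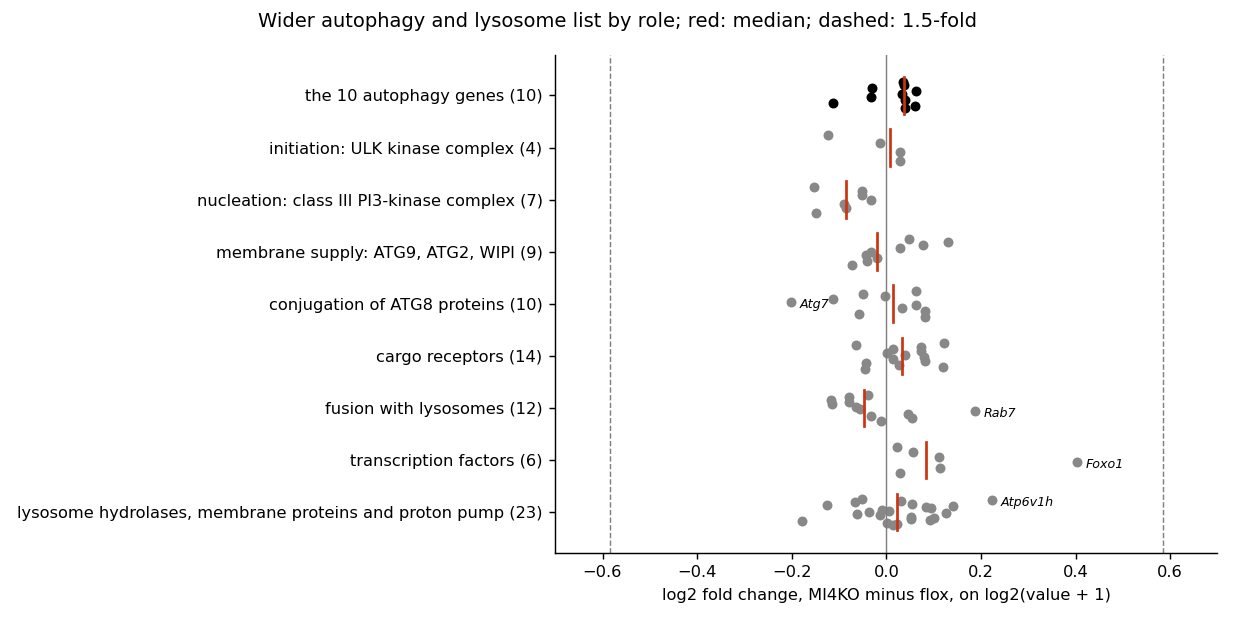
Log2 fold change, MI4KO minus flox, on log2(value + 1) (horizontal axis) for the 10 autophagy genes (black) and 85 further autophagy and lysosome genes by role (grey), with the number of genes in parentheses. Red lines are medians, dashed lines mark 1.5-fold, and no gene reaches them, with Foxo1 furthest at 0.40.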

How the data were processed

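SOL RNA of 4 MI4KO and 4 flox mice was analysed, grouped by the condition in the labels. Stranded mRNA libraries were read by the authors as single 50-base reads, aligned with Bowtie2 2.1.0 to the UCSC transcript set, quantified by RSEM 1.2.15 and scaled by TMM; the submitters' processing notes name mm10. The deposited signal is TMM-normalized CPM per gene and mouse. The authors also deposited fold-change scores, p-values and FDR from their own comparison, which were not used. In every mouse 100% of non-zero values were whole multiples of 1 read within 0.01 read, so whole counts were recovered. These are called reads here and may be rounded RSEM estimates where genes share reads. Every pair of mice differed beyond sampling noise (chi-square over degrees of freedom 6.06 to 52.4), so all 8 libraries were kept. Read totals and floors cover counting error only.

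limma 3.58.1 (R 4.3.3) with a mean-variance trend was fitted to log2(value + 1) for the 11865 genes that reached a value of 1 in 4 or more of the 8 mice, which understates changes of low genes. Calls used the study's limits (1.5-fold, unadjusted p under 0.05) and a Benjamini-Hochberg adjusted p under 0.05 over all genes. Exact two-sided permutation tests used scipy 1.17.1, with 0.0286 as the smallest p possible. On simulated counts over 11774 genes, 16 of 11579 unchanged genes were called at an adjusted p under 0.05. Alternatives were other pseudocounts, no filter, other scalings, limma options, the animal number range, each mouse left out, and count tests on recovered reads by edgeR 4.0.16 and by DESeq2 1.42.0. Positions, lengths and shared 50-base stretches are from GENCODE M21 (GRCm38), looked up by symbol, and promoters from RefSeq (GRCm38.p6). Rubcn and Retreg1 were matched through older symbols.

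The 10 genes, the wider list and the marker lists were chosen with earlier results of these data known. Genes named are the 10 genes, Irf4, Foxo1 and Foxo3, the lowest and highest gene of each role, those under an unadjusted p of 0.05 or without overlap, and the 5 genes most like the one of the 10 with the largest range over mice. Fkbp5, Mt1, Arntl, Dbp, Npc1, Hexa, Tfe3, Mitf, Foxo4, Tax1bp1, Tex264, Snap29, Ctsb, Ctsd, Atp6v1b2 and Atp6v1a were added with their values known.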

Additional observations from a re-analysis of the deposited data

Results flagged for a closer look

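Within each group of 4 mice, the gap between the highest or lowest mouse and its nearest neighbour was set against the range of the group for the 10 autophagy genes, Foxo1 and Foxo3. In 2 of 24 groups it passed the 95% limit of Dixon's test, where chance flags about 1 in 20, or 1.2 of 24. Map1lc3b in MI4KO mouse 3 was at 258.7, with a gap of 0.885 of the range to the other MI4KO mice, which lay between 179 and 187. Foxo1 in the same mouse was at 123.6, with a gap of 0.834 and the other MI4KO mice between 29.1 and 37.1. Ctsl in that mouse, at 146, had a gap of 0.816 and did not pass.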

How the results depend on the processing

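No paired analysis was possible because the labels number each mouse singly and share no replicate number between the groups. None of the 10 autophagy genes was called under any of 20 alternatives for each, and the lowest unadjusted p of any was 0.0819, for Gabarapl1. Signs were less stable, as differences this small allow. Leaving out 1 mouse at a time moved the log2 fold change of Map1lc3a between -0.024 and 0.111, Map1lc3b between -0.063 and 0.113, Sqstm1 between -0.079 and 0.0053, Ulk1 between -0.063 and 0.119, Tfeb between -0.072 and 0.0097, Ctsl between -0.068 and 0.093 and Atg5 between -0.0036 and 0.112. Gabarapl1 stayed below 0 and Gabarapl2 and Becn1 above 0 in every alternative. On plain CPM, Sqstm1 turned to 0.012 and Tfeb to 0.013. Without MI4KO mouse 3 and flox mouse 1 together, chosen after seeing the data, Map1lc3a was at -0.048, Map1lc3b at -0.044, Ulk1 at -0.014, Ctsl at -0.071 and Atg5 at -0.0052. Of the wider list, edgeR's exact test called 1 gene, where limma called 0. The number of all genes past the limits, 26, was 71 with a pseudocount of 0.1, 5 with a pseudocount of 5, 13 with robust limma, 66 by edgeR's quasi-likelihood test, 94 by its exact test, 51 by DESeq2, 19 to 58 with 1 mouse left out (58 without MI4KO mouse 4) and 41 without MI4KO mouse 3 and flox mouse 1. At an adjusted p under 0.05 the count of 0 became 0 to 1 with 1 mouse left out (1 without MI4KO mouse 2) and 1 without those 2 mice. The cause was not tested. Scaling moved the median of all genes from -0.01 to 0.03 at most, on plain CPM.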
